A study of Mus musculus with 34 samples.

Results

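Igf1, Gas6, Inhba and Tgfb1 encode secreted growth factors that macrophages can make, and their rows were read in colonic macrophages of the mouse. They are 4 of 9851 genes listed in at least 1 of 3 expression tables, found by gene symbol, and each of the 4 is listed in every table. The choice names them directly and was made with earlier results of these data known. The 34 libraries came from macrophages of the colonic lamina propria of C57BL/6 mice, sorted as CD45+CD11b+CD11cintCD64+ cells without Ly6c and CD103.

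The first table compared 3 libraries titled CXhet with 3 titled IL10R, from untreated mice of 6 to 7 weeks. The rescue table, also at 6 to 7 weeks, held 2 libraries titled CX, 5 titled IL10R and 4 titled IL10R_P19, none of them treated, and 4 libraries titled IL10R_abx and 3 titled littermate_abx from mice given antibiotics in the drinking water. The neutrophil table held wt libraries (4), ko_igg libraries (3) and ko_ly6g libraries (3) from bone marrow chimeras at 4 weeks after chimerism. The treatment label gives every chimera an anti-Ly6g injection, the titles separate IgG from Ly6g, and the titles were followed. IL10R is read from the series title as macrophages deficient in the alpha chain of the interleukin-10 receptor (gene Il10ra), and P19 is the usual name of the interleukin-23 subunit encoded by Il23a. The labels do not say how or in which cells Il10ra was inactivated, what CX and the 5C5 in several titles stand for, which genotype the littermates had, which cells of the chimeras' hosts remained, or that libraries came from separate mice. The p-values therefore measure the spread between libraries, which may be technical.

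Igf1 encodes insulin-like growth factor 1, a ligand of the receptor encoded by Igf1r, and tissue macrophages are a known local source of it. Gas6 bridges phosphatidylserine on dying cells to the TAM receptors Tyro3, Axl and Mertk, through which macrophages take up apoptotic cells. Inhba encodes the beta A subunit whose dimer is activin A, and Tgfb1 encodes transforming growth factor beta 1, which is secreted in a latent form, and both ligands signal through serine/threonine kinase receptors to SMAD2 and SMAD3. Interleukin-10 signalling through STAT3 is known to restrain inflammatory genes of gut macrophages.

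The sequences before the transcription starts of Igf1 and Inhba are shown because these genes differed in opposite directions in the comparisons that follow. Each run holds the 250 bases before the start in the RefSeq annotation of GRCm38.p6, written 5′ to 3′ on the gene's strand, with capitals marking a motif match. The Igf1 run lies at chr10:87860861-87861110 on the plus strand, and the Inhba run at chr13:16011601-16011850 on the plus strand.
Igf1: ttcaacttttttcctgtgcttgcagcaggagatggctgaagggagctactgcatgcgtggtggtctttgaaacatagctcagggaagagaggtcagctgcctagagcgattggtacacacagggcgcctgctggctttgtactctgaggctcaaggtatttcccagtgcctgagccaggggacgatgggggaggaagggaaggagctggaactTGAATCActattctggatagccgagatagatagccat
Inhba: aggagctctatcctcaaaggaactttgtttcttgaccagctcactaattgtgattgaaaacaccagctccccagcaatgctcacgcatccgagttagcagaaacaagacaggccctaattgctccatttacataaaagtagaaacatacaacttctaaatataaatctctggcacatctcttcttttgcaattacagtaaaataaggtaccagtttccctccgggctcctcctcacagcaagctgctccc
The 3 motifs TTCNNNGAA (a STAT motif), CAGAC (a SMAD motif) and TGANTCA (an AP-1 motif) were searched on both strands of all 4 genes' runs, with no overlap among their matches. The Igf1 run held 1 TGANTCA match, starting at position -37 from the start, and the Gas6 run (chr8:13494536-13494785, minus strand) held 1 CAGAC match at -215. No match to any of the 3 was in the Inhba run or in the Tgfb1 run (chr7:25686752-25687001, plus strand), whose G and C content was 75.2% against 43.2% for Inhba. Of 32851 promoters of the same length, 7.02% held TTCNNNGAA, 42.2% held CAGAC and 6.75% held TGANTCA, and a match is a description of the letters only.

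Values are normalized signal, the reads of a gene divided by 1 factor per library, with no correction for gene length. They can be compared between libraries of a table and not between genes or tables. Recovered reads numbered 1458726 to 2487074 a library for the first table, 747046 to 2775974 for the rescue table and 1028567 to 4525047 in 8 libraries of the neutrophil table. The targeted gene Il10ra was at 4.56 to 31.2 in the 5 IL10R libraries of the rescue table, at 1.70 to 12.2 in the IL10R_P19 and IL10R_abx libraries, and at 138 to 284 in CX and littermate_abx. In the first table Il10ra lay between 371 and 689 in CXhet, while the 3 IL10R libraries had 9.26, 361 and 65.9, so in Il10ra the library labelled IL10R 2 went against its label. Of the 3 it was the lowest in Igf1 (49.2) and Gas6 (152) and the highest in Inhba (670) and Tgfb1 (633). First-table changes of the 4 genes, and of the genes called in their lists, are given with and without this library. In the chimeras Il10ra was at 77.9 to 111 in ko_igg, 32.2 to 65.1 in ko_ly6g and 247 to 827 in wt. All 11 listed macrophage markers, such as Csf1r, Cx3cr1 and C1qa, were above 0 in every group, and so were all 14 listed epithelial markers.

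Without treatment, Igf1 was lower in the libraries titled IL10R of the first and rescue tables, Inhba was higher in the first table, Gas6 was lower in the first table and not detectably different in the rescue table, and Tgfb1 was lower in the rescue table and not called in the first. Of Igf1, Gas6 and Tgfb1, 2 passed the test in the first table, where 8.69% of 6766 tested genes did. Inhba is counted apart, from a fit without the filter on low values, where 8.76% of 9022 genes were called. Each change below is on the log2(value + pseudocount) scale from limma, with its standard error (SE) and a p-value adjusted by Benjamini and Hochberg over all tested genes of the table, and a gene was called at an adjusted p under 0.05.

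Igf1 in the first table stood at 875, 582 and 445 in CXhet 1, 2 and 3 and at 167, 49.2 and 201 in IL10R 1, 2 and 3. Every IL10R library was below every CXhet library. Igf1 fell by 2.35 (SE 0.49, limma adjusted p = 0.0216, means 139 ± 79.7 against 634 ± 220, SD, n = 3 each). The call was lost when any of the CXhet libraries was left out (limma adjusted p = 0.0640 to 0.0901), and without the library labelled IL10R 2 the change was -1.73 (adjusted p = 0.00879).

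Gas6, the ligand of the TAM receptors, stood at 1666, 1747 and 1411 in CXhet and at 494.5, 152 and 277 in IL10R. The CXhet libraries lay close together and far above the IL10R ones. Gas6 fell by 2.54 (SE 0.38, limma adjusted p = 0.00573), a 5.23-fold difference of the means, and by 2.11 without the library labelled IL10R 2.

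Inhba, the activin A subunit, stood at 15.4, 7.46 and 15.3 in CXhet, which are 8 to 11 reads per library, and at 225, 670 and 380 in IL10R, which are 170 to 517 reads. The gene was close to the bottom of the table in CXhet and passed the filter on low values only through the IL10R libraries. Inhba rose by 4.85 in the fit without that filter (SE 0.41, limma adjusted p = 3.13e-04), a 33.4-fold difference of the means. In the fit with the filter the change was the same, and it was 4.45 without the library labelled IL10R 2.

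Tgfb1 stood at 569, 379 and 254 in CXhet and at 409, 633 and 411 in IL10R. The groups overlapped, and the change was 0.32 (95% interval -0.39 to 1.02, limma adjusted p = 0.556), and 0.11 without the library labelled IL10R 2. The summed level of the macrophage markers overlapped between these groups (45865 to 82053 in CXhet, 57217 to 69211 in IL10R), as did those of epithelial markers and of stromal markers. That of 5 neutrophil markers did not, with 104 to 171 in CXhet, where Retnlg was at 0 in all libraries, and 485 to 756 in IL10R, and its part in the results was not tested.

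**Figure D1:**
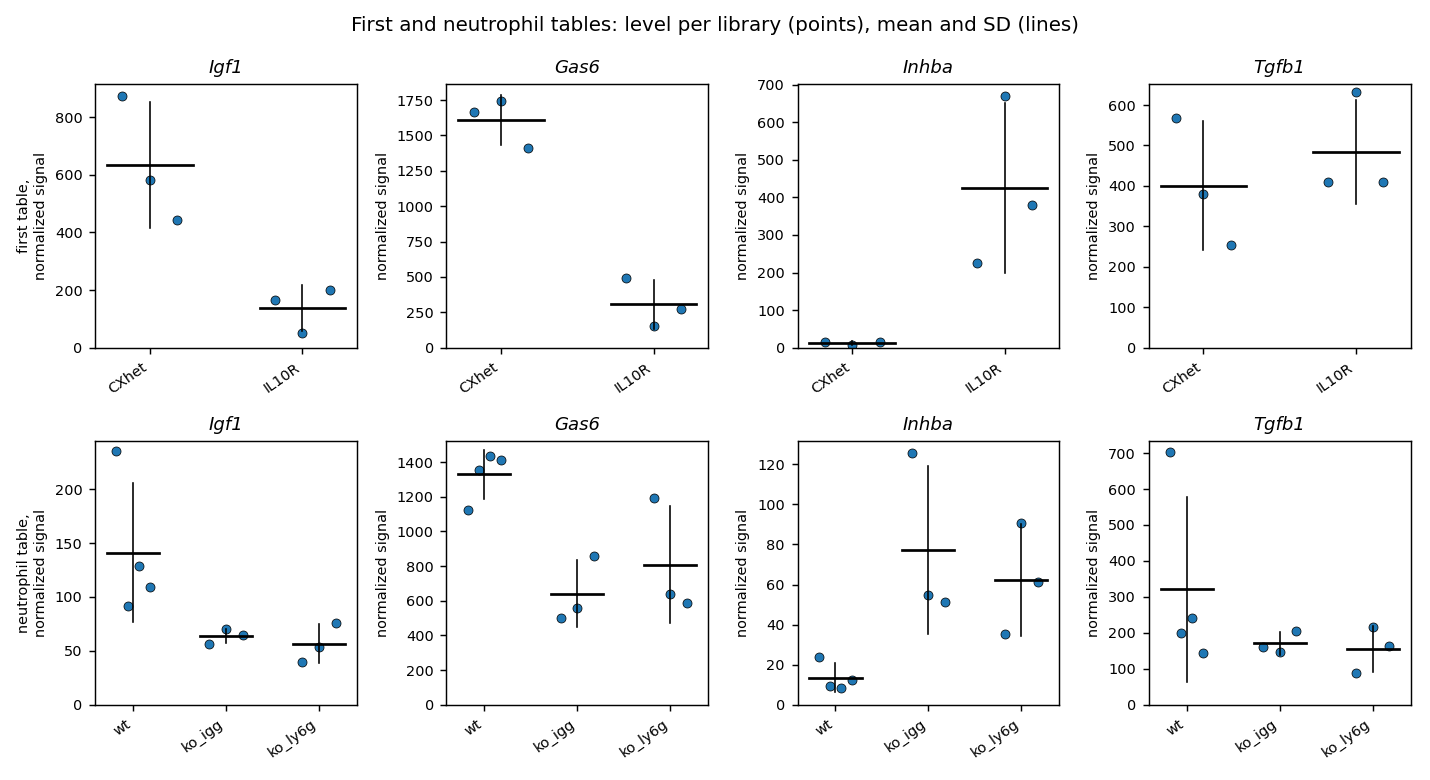
Normalized signal (vertical axes, starting at 0) of the 4 genes in each library of the first table (upper row) and the neutrophil table (lower row); points are libraries, horizontal lines group means and vertical lines 1 SD. In the first table Igf1 and Gas6 were lower and Inhba was higher in every IL10R library than in any CXhet library, and in the neutrophil table Inhba was higher in every ko_igg and ko_ly6g library than in any wt library.

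In the rescue table IL10R was compared with CX, the untreated comparison group, and 2 of the 3 genes that passed the filter there, Igf1 and Tgfb1, were called, where 9.91% of 6612 tested genes were. Igf1 stood at 44.2, 38.4, 45.9, 45.6 and 187 in IL10R 27, 32, 61, 67 and 68, and at 313 and 245 in CX 1 and 3. Of the 5 IL10R libraries, 4 lay within a narrow band, library 68 lay between them and CX, and no library of the groups overlapped. Igf1 fell by 2.23 (SE 0.44, limma adjusted p = 0.00571), and by 2.64 without IL10R 68. With only 2 CX libraries the call was lost when either was left out (limma adjusted p = 0.119 without CX 1 and 0.0502 without CX 3), and also when only these 2 groups entered the fit (adjusted p = 0.0655). A lone CX library was then assumed to vary like the libraries of the other groups.

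Tgfb1 stood at 55.9, 58.1, 69.2, 67.6 and 81.2 in the same IL10R libraries and at 191 and 159 in CX. The IL10R libraries were tightly grouped below CX, with library 68 again the highest of the 5. Tgfb1 fell by 1.39 (SE 0.22, limma adjusted p = 0.00156), a 2.63-fold difference of the means, and was not called without CX 1 (adjusted p = 0.0685).

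Gas6 stood at 267, 545, 591, 604 and 689 in IL10R and at 652 and 636 in CX. Library 27 was low, library 68 was above both CX libraries, and the groups overlapped. The change was -0.33 (95% interval -0.88 to 0.23, limma adjusted p = 0.471), an interval that does not reach the change of -2.54 in the first table. The difference between the tables was not tested, since they were normalized separately.

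Inhba was under the filter on low values in the rescue table, so its changes there come from a fit without that filter, in which 7.50% of 8816 genes were called for IL10R against CX. It stood at 46.8, 18.7, 23.3, 15.9 and 9.65 in IL10R, from 12 to 36 reads per library, and at 3.11 and 8.54 in CX. Every IL10R library was above both CX libraries, library 27 being the highest and library 68 the lowest. The change was 1.75 (SE 0.62, limma adjusted p = 0.0833), which missed the threshold, and was 2.00 without IL10R 68 (adjusted p = 0.0428).

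The macrophage markers moved with these results: their summed level was 11913 to 16682 in IL10R and 27582 to 28554 in CX, a 1.95-fold difference, and 8 of 11 were called lower. In sorted bulk RNA, fewer macrophages in the sort and less of an RNA per macrophage cannot be told apart. Summed epithelial markers overlapped (21727 to 25819 in IL10R, 19484 to 22269 in CX), as did stromal ones (1420 to 2987 and 1481 to 1704), and the CD45+ sort should leave out both cell types. Cell types with 1 listed marker did not overlap. The endothelial marker was at 108 to 202 in IL10R and 44.5 to 101 in CX (not called). The platelet marker was at 132 to 256 and 57.0 to 99.6 (called higher), and the T cell marker at 36.4 to 78.2 and 134 to 136 (called lower). The neutrophil markers summed to 1293, 167, 119, 100 and 60.3 in IL10R 27, 32, 61, 67 and 68, so library 27, the highest in Inhba and lowest in Gas6, was highest in them and library 68 was lowest. The part of these markers in the results was not tested.

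**Figure D2:**
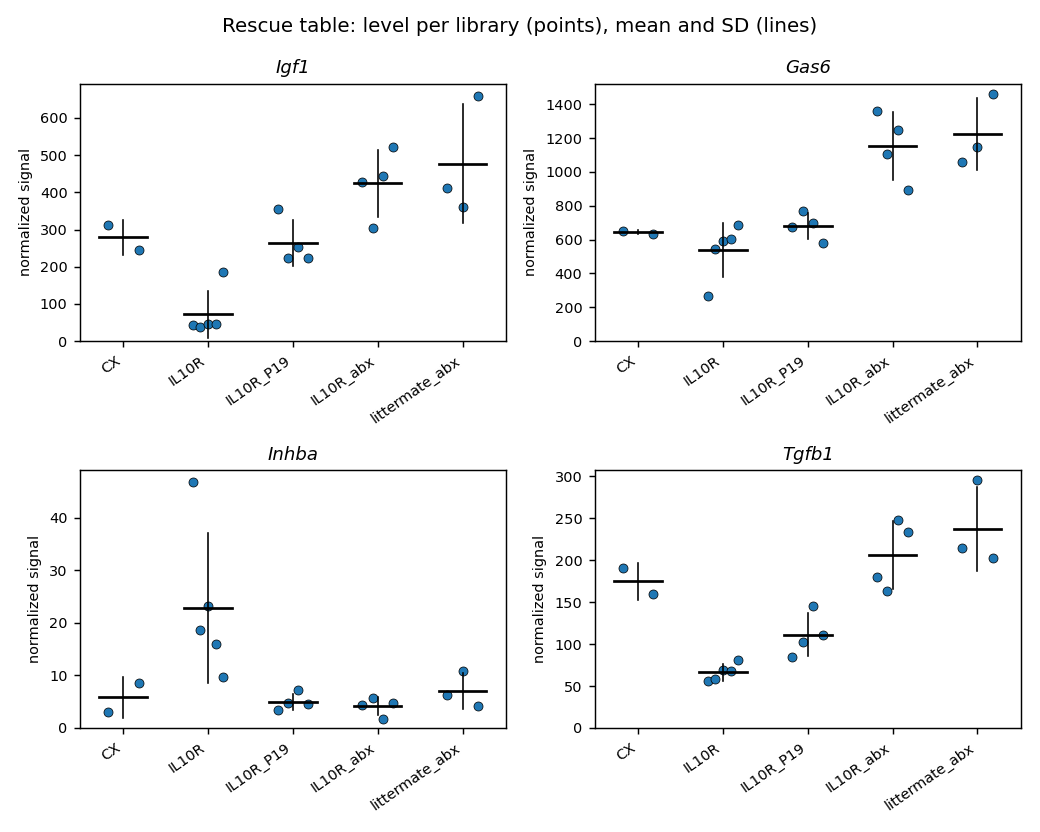
Normalized signal (vertical axes, starting at 0) of the 4 genes in each library of the rescue table; points are libraries, horizontal lines group means and vertical lines 1 SD. Igf1 and Tgfb1 were lowest in the IL10R libraries and the group mean of Inhba was highest there, with IL10R 68 at 187 in Igf1 apart from the other IL10R libraries at 38.4 to 45.9.

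The IL10R_P19 libraries were compared with IL10R and with CX. Igf1 and Tgfb1, 2 of the 3 filtered genes, rose against IL10R, where 2.43% of tested genes were called, and none of the 4 was called against CX, where 0.0302% were (0.0340% without the filter). Igf1 stood at 354, 225, 253 and 225 in the 4 IL10R_P19 libraries. All were above the highest IL10R library, and the range overlapped that of CX. Igf1 rose by 2.14 against IL10R (SE 0.35, limma adjusted p = 0.00668), and against CX the difference was -0.09 (95% interval -1.06 to 0.87).

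Tgfb1 stood at 85.2, 103, 146 and 111 in the same libraries. These lay between the groups, above every IL10R library and below both CX libraries. Tgfb1 rose by 0.72 against IL10R (SE 0.17, limma adjusted p = 0.0324), a call that was lost when any of 7 of the 9 libraries was left out (all but IL10R 68 and the IL10R_P19 library with the highest Igf1, limma adjusted p = 0.0564 to 0.166). Against CX the difference was -0.67 (95% interval -1.14 to -0.20), which did not pass the adjustment over all genes (limma adjusted p = 0.881).

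Gas6 stood at 673, 767, 699 and 581 in IL10R_P19, overlapping both other groups. The changes were 0.40 against IL10R (95% interval -0.05 to 0.84) and 0.07 against CX (95% interval -0.50 to 0.65). Inhba stood at 3.48, 4.76, 7.16 and 4.57, from 4 to 11 reads, below every IL10R library and within the range of CX. The change against IL10R was -1.85 (SE 0.49, limma adjusted p = 0.0590 in the fit without a filter, where 1.81% of genes were called). It was called with a pseudocount 4 times larger (-1.45), with edgeR on recovered reads (-2.09, adjusted p = 0.0181), when only these groups entered the fit, and without IL10R 68. Of the 11 macrophage markers, 4 were called higher in IL10R_P19 than in IL10R, with summed levels of 14609 to 23202, which overlap those of IL10R. Against CX their sum was 1.40-fold lower without overlap, and none of the 11 was called. The part of these markers in the results was not tested.

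The antibiotic groups were compared with each other and with the untreated ones. All 4 genes were called for IL10R_abx against IL10R, where 57.8% of tested genes were called (55.6% without the filter), so a call there sets a gene apart from few others. Igf1 stood at 427, 305, 444 and 521 in the 4 IL10R_abx libraries, all above IL10R. Igf1 rose by 2.82 (SE 0.35, limma adjusted p = 3.07e-06), a 5.88-fold difference of the means.

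Tgfb1 stood at 181, 164, 248 and 233 in IL10R_abx, above the highest IL10R and IL10R_P19 libraries. It rose by 1.61 against IL10R (SE 0.17, limma adjusted p = 2.48e-07) and by 0.89 against IL10R_P19 (adjusted p = 5.04e-04), where 48.3% of tested genes were called (46.0% without the filter). Gas6 stood at 1358, 1104, 1248 and 895, above every untreated library of the table. It rose by 1.15 against IL10R (SE 0.21, limma adjusted p = 1.30e-04) and by 0.75 against IL10R_P19 (adjusted p = 0.00945).

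Inhba stood at 4.35, 5.64, 1.70 and 4.804 in IL10R_abx, which are 1 to 5 reads per library. These levels were below every IL10R library, and the depth sets their precision. Inhba fell by 2.12 against IL10R (SE 0.49, limma adjusted p = 0.00115, fit without a filter). Against IL10R_P19, Igf1 changed by 0.68 (95% interval -0.11 to 1.47) and Inhba by -0.27 (-1.35 to 0.82), and neither was called.

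The 3 littermate_abx libraries held Igf1 at 411, 362 and 660, Gas6 at 1059, 1145 and 1461, Tgfb1 at 215, 295 and 202 and Inhba at 6.20, 10.8 and 4.21. Each gene overlapped IL10R_abx. None of the 4 was called between these groups, where 0.0302% of tested genes were (0.0340% without the filter), and the differences of IL10R_abx from littermate_abx were -0.15 for Igf1 (95% interval -1.0 to 0.70), -0.09 for Gas6 (-0.60 to 0.42), -0.20 for Tgfb1 (-0.62 to 0.21) and -0.65 for Inhba (-1.82 to 0.52). Against CX, Gas6 rose by 0.91 in littermate_abx (SE 0.29, limma adjusted p = 0.0206), where 34.0% of tested genes were called (31.0% without the filter), and the call was lost without CX 1, CX 3 or the littermate_abx library with Igf1 at 660. Igf1 and Tgfb1 differed from CX by 0.73 (95% interval -0.28 to 1.75) and 0.42 (-0.07 to 0.92) and were not called.

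The control groups CX and littermate_abx differ by title in more than antibiotics, so antibiotics and the kind of control cannot be told apart here. The value tested was the difference of IL10R against CX from IL10R_abx against littermate_abx, called the antibiotic difference below. It was -2.08 for Igf1 (limma adjusted p = 0.167), -1.19 for Tgfb1 (0.102), -0.24 for Gas6 (0.874) and 2.40 for Inhba (0.284, fit without a filter), and none was called, with 0.106% of tested genes called (0.0907% without the filter). Without IL10R 68 those for Igf1 (-2.50, adjusted p = 0.00251) and Tgfb1 (-1.26, 0.0447) were called. The comparisons of the rescue table share libraries, so their values stand side by side and are not independent.

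The antibiotic libraries also differed in markers. Summed macrophage markers were 36592 to 45526 in IL10R_abx, a 2.93-fold difference from IL10R with 11 of 11 called higher, and 40878 to 46064 in littermate_abx. Of the same markers, 9 of 11 were called higher in IL10R_abx than in IL10R_P19, and 5 of 11 in littermate_abx than in CX, a 1.56-fold difference of the sums without overlap. Epithelial markers were 4106 to 8138 in IL10R_abx and 4191 to 6339 in littermate_abx, with 14 of 14 called lower in IL10R_abx than in IL10R or IL10R_P19, and 14 of 14 lower in littermate_abx than in CX. Of 8 tested stromal markers, 4 were called lower in IL10R_abx than in IL10R and 1 lower in littermate_abx than in CX. Over all tested genes, 57.8% were called for IL10R_abx against IL10R, 48.3% against IL10R_P19 and 34.0% for littermate_abx against CX. The stromal counts were not above these shares, and 5 of 11 macrophage markers was close to the last of them. The part of these markers in the changes of the 4 genes was not tested.

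By mean level in the rescue table, Igf1 ran in the order IL10R (72.1 ± 64.1, SD, n = 5), IL10R_P19 (264 ± 61.4, n = 4), CX (279 ± 48.0, n = 2), IL10R_abx (424 ± 89.5, n = 4) and littermate_abx (477 ± 160, n = 3), and only the lowest pair of neighbours did not overlap. Gas6 ran in the order IL10R (539 ± 160.9), CX (644 ± 11.7), IL10R_P19 (680 ± 77.1), IL10R_abx (1151 ± 200) and littermate_abx (1222 ± 212), and the gap between IL10R_P19 and IL10R_abx was the one between neighbours whose libraries did not overlap. Tgfb1 ran in the order IL10R (66.4 ± 10.1), IL10R_P19 (111 ± 25.5), CX (175 ± 22.0), IL10R_abx (206 ± 40.5) and littermate_abx (237 ± 50.5), and the neighbours from IL10R to CX did not overlap while the later ones did. Inhba ran in the order IL10R_abx (4.12 ± 1.70), IL10R_P19 (4.99 ± 1.55), CX (5.82 ± 3.84), littermate_abx (7.08 ± 3.40) and IL10R (22.9 ± 14.3), and every neighbouring pair overlapped.

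In the chimeras, ko_igg and ko_ly6g were compared with wt and with each other, a design whose titles name neutrophil depletion. Inhba was called higher in both ko groups, Gas6 lower in ko_igg, and no gene was called between the ko groups. Inhba, again under the filter, stood at 126, 54.7 and 51.2 in ko_igg 14, 16 and 18, at 35.2, 90.9 and 61.02 in ko_ly6g 5, 6 and 7, and at 23.8, 9.17, 8.57 and 12.6 in wt 1 to 4. All ko libraries were above all wt libraries, and the ko groups overlapped. In the fit without a filter, which called 9.29% of 8793 genes for ko_igg and 4.58% for ko_ly6g, Inhba rose by 2.42 in ko_igg (SE 0.47, limma adjusted p = 0.0104) and by 2.14 in ko_ly6g (adjusted p = 0.0293). With edgeR on the 8 libraries with recovered reads, neither passed (adjusted p = 0.0679 and 0.124). Leaving out ko_igg 14 ended the call in ko_igg, and leaving out wt 2, wt 3, wt 4, ko_ly6g 6 or ko_ly6g 7 ended that in ko_ly6g.

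Gas6 stood at 502, 559 and 861 in ko_igg, at 1195, 639 and 589 in ko_ly6g, and at 1125, 1353, 1433 and 1412 in wt. The wt libraries were above all of ko_igg, while ko_ly6g 5 lay within the wt range. Gas6 fell by 1.09 in ko_igg (SE 0.27, limma adjusted p = 0.0336, with 9.19% of 6594 tested genes called), a call that edgeR did not make (adjusted p = 0.230) and that was lost without ko_igg 14, ko_igg 16, wt 2, wt 3 or wt 4. Since ko_igg 16 and wt 3 had no recovered reads, edgeR differed from limma in both method and libraries. In ko_ly6g the change was -0.79 (95% interval -1.39 to -0.19, limma adjusted p = 0.137, with 4.34% of genes called), and without ko_ly6g 5 it was -1.11 (adjusted p = 0.0474). Library ko_ly6g 5 had the lowest summed macrophage markers of its group (15822, against 34364 and 37946) and the lowest neutrophil markers (183, against 1378 and 1433). Its epithelial markers were the highest (65338, against 42909 and 50433), and the part of these markers was not tested.

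Igf1 stood at 56.4, 70.0 and 64.9 in ko_igg, at 40.0, 54.0 and 76.3 in ko_ly6g, and at 235, 91.7, 129 and 109 in wt. Every ko library was below every wt library. The changes were -1.04 in ko_igg (SE 0.32, limma adjusted p = 0.0670) and -1.25 in ko_ly6g (SE 0.32, adjusted p = 0.0554), which missed the threshold. Without wt 1, the library with the highest Igf1, the changes were -0.77 (adjusted p = 0.0641) and -0.97 (adjusted p = 0.0422).

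Tgfb1 stood at 160, 146 and 205 in ko_igg, at 88.3, 215 and 165 in ko_ly6g, and at 702, 200, 242 and 143 in wt. All 3 groups overlapped, and wt 1 lay far above the other libraries. The changes were -0.64 in ko_igg (95% interval -1.71 to 0.42) and -0.85 in ko_ly6g (-1.91 to 0.22), and without wt 1 they were -0.17 and -0.38. This library also held the highest summed macrophage markers of wt (96810, against 29402 to 40884 in the other wt libraries), the fewest recovered reads of the table and the highest Il10ra. Its summed epithelial markers were the lowest of wt (28691, against 50650 to 58249), and the part of these markers in its values was not tested.

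Between ko_ly6g and ko_igg none of the 4 genes was called, and limma called 0% of tested genes, with 127 genes at an unadjusted p under 0.05, and edgeR called 0. The differences were -0.21 for Igf1 (95% interval -0.97 to 0.55), 0.30 for Gas6 (-0.35 to 0.94), -0.28 for Inhba (-1.38 to 0.82) and -0.20 for Tgfb1 (-1.34 to 0.93). These intervals do not exclude changes of more than 1 on the log2 scale for Inhba and Tgfb1. Summed macrophage markers were 23973 to 32930 in ko_igg and 15822 to 37946 in ko_ly6g, 1.71-fold and 1.69-fold below wt in the mean, with overlap. The wt mean was raised by wt 1 at 96810, against 29402 to 40884 in the other wt libraries. Of these markers, 2 of 11 were called lower in ko_igg and 1 in ko_ly6g, beside 9.19% and 4.34% called over all tested genes. Neutrophil markers summed to 265 to 1035 in ko_igg, 183 to 1433 in ko_ly6g and 122 to 280 in wt, which overlap, with means 3.53-fold and 5.36-fold above wt and 1 of 3 tested called higher in each. Epithelial markers summed to 46381 to 59388 in ko_igg, 42909 to 65338 in ko_ly6g and 28691 to 58249 in wt. These ranges overlap, and none of 13 tested epithelial markers was called between the groups. The part of these markers in the results was not tested.

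**Figure D3:**
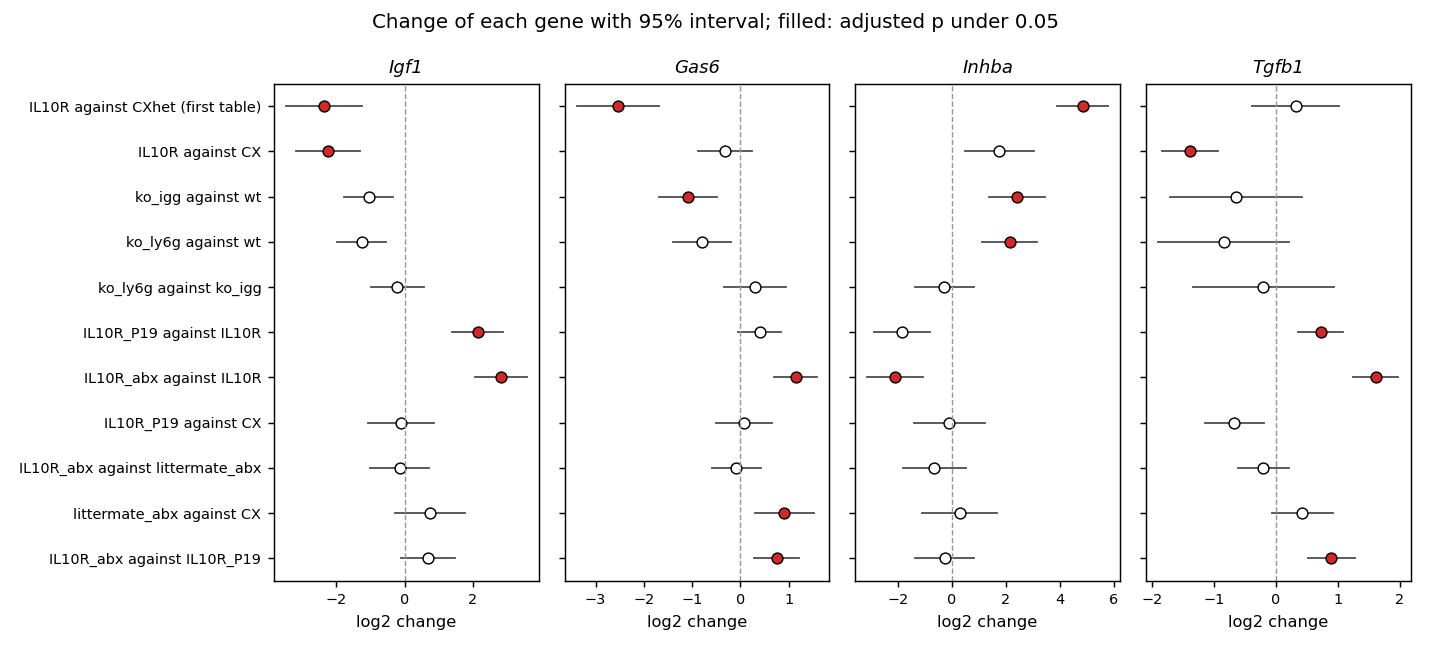
Change of each gene (horizontal axes, log2 change from limma) in 11 comparisons (rows), with 95% intervals as lines and filled circles where the adjusted p was under 0.05; Inhba in the rescue and neutrophil tables is from the fit without a filter. The circles for Igf1 and Inhba fall on opposite sides of 0 in the uppermost 4 rows, from -2.35 to -1.04 for Igf1 and from 1.75 to 4.85 for Inhba.

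The level of Igf1 over that of Inhba in the same library puts the opposite changes on 1 scale, a measure chosen after the values were seen and given without a test. As no length correction was made, only its differences between libraries can be read. In the first table it was 29.1 to 78.0 in CXhet and 0.0735 to 0.741 in IL10R. In the rescue table it was 0.944 to 19.3 in IL10R, with library 68 highest, against 28.7 to 101 in CX, 35.4 to 102 in IL10R_P19, 54.0 to 262 in IL10R_abx and 33.4 to 156 in littermate_abx. These last 4 groups had few Inhba reads per library: 3 to 15, 4 to 11, 1 to 5 and 4 to 8 in that order. The ratio of 262 rests on 1 Inhba read, so the upper ends of these ranges are imprecise. In the neutrophil table it was 8.67 to 15.0 in wt, 0.449 to 1.28 in ko_igg and 0.595 to 1.25 in ko_ly6g. The IL10R, ko_igg and ko_ly6g libraries were thus all below the libraries of CXhet, CX and wt in their tables.

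**Figure D4:**
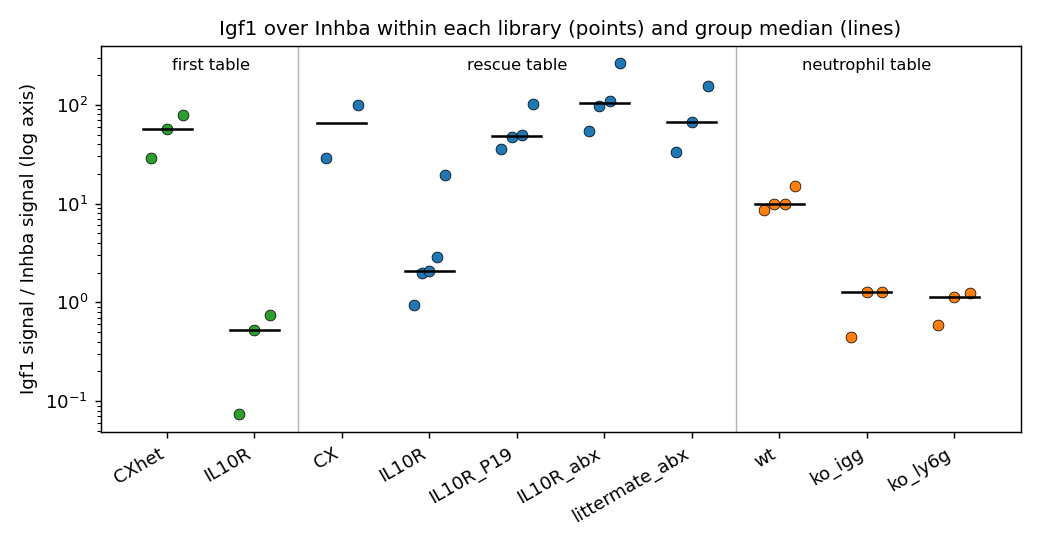
Igf1 signal divided by Inhba signal (vertical axis, logarithmic) in each library (points), with group medians as lines and vertical grey lines between the tables. IL10R, ko_igg and ko_ly6g lie below the comparison groups of their table, and the highest IL10R library of the rescue table, at 19.3, lies between the others and CX.

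The partners of the 4 ligands were read from lists chosen with earlier results known. On the IGF side, Igfbp4, a binding protein that holds insulin-like growth factors away from their receptor, was at 191 ± 33.1 in IL10R and 326 ± 42.6 in CX (SD, n = 5 and 2). Igfbp4 fell by 0.78 in IL10R (limma adjusted p = 0.0387), was not called in IL10R_P19 against IL10R (0.39), and rose by 2.23 in IL10R_abx against IL10R. The receptor gene Igf1r was under the filter in the rescue and neutrophil tables and was not called in the first table (-0.53, limma adjusted p = 0.227). Its rescue levels, given without a test, were 18.2 to 32.9 in IL10R, 26.1 to 35.2 in IL10R_P19 and 36.4 to 41.4 in CX. They were 43.5 to 63.9 in IL10R_abx and 48.5 to 73.1 in littermate_abx. In the chimeras Igf1r was at 41.0 to 66.9 in ko_igg, 37.0 to 65.1 in ko_ly6g and 66.9 to 69.2 in wt. Apart from Igf1 itself, 0 of 10 tested genes of the IGF list were called by limma or edgeR in the first table (1 at an unadjusted p under 0.05), and 0 higher and 1 lower of 8 for IL10R against CX, with a median change of -0.29 beside 0.01 for all tested genes. Of all tested genes, 8.69% and 9.91% were called in these comparisons, in that order. None of 8 was called by limma or edgeR for IL10R_P19 against IL10R (3 at an unadjusted p under 0.05), and none of 7 in ko_igg (5) or ko_ly6g (1) against wt. Shares called by limma over all tested genes there were 2.43%, 9.19% and 4.34%, in that order. For IL10R_abx against IL10R, 3 of 8 were higher and 2 lower, near the 57.8% called over all tested genes, among them Irs2, an adaptor of the insulin and IGF receptors (1.65), Pik3r1, a regulatory subunit of PI3-kinase (0.75), and Igf2r, which clears IGF2 (-2.10).

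On the Gas6 side, the TAM receptor gene Axl was not called in any comparison. It was at 610.5 ± 171 in CXhet and 1027 ± 178 in IL10R of the first table (change 0.77, limma adjusted p = 0.0959), so the change of the receptor had the opposite sign to that of the ligand there. Pros1, the other TAM ligand, rose by 1.24 in IL10R_abx against IL10R, by 1.22 in littermate_abx against CX and by 0.85 in IL10R_abx against IL10R_P19, and was not called in the other comparisons of the rescue table. In the first table Pros1 was under the filter. There it ranged over 48.6 to 70.8 in CXhet libraries and over 9.07 to 31.8 in IL10R libraries, and with no filter the difference of -1.52 was not called (limma adjusted p = 0.0695). Stab1, a scavenger receptor for apoptotic cells, fell by 1.51 in the first table (-1.40 and not called without the library labelled IL10R 2) and by 1.84 in IL10R against CX, and rose by 1.06 in IL10R_P19 and by 3.22 in IL10R_abx against IL10R. Vkorc1, the vitamin K reductase needed for the carboxylation that Gas6 depends on, fell by 1.09 in IL10R against CX, by 1.65 in ko_igg and by 1.13 in ko_ly6g (not called by edgeR, adjusted p = 0.0710), and rose by 0.86 in IL10R_P19 against IL10R. Socs1, an inhibitor of cytokine signalling known as a TAM target, rose by 2.49 in the first table (2.24 without the library labelled IL10R 2), by 2.79 in ko_igg and by 2.64 in ko_ly6g.

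Of the tested genes of this list other than Gas6, 1 was higher and 1 lower of 11 in the first table (1 and 0 without the library labelled IL10R 2), 1 higher and 3 lower of 12 for IL10R against CX, and 2 higher of 12 for IL10R_P19 against IL10R. Over all tested genes, 8.69%, 9.91% and 2.43% were called in these comparisons, in that order. The remaining calls for IL10R against CX were Itgb5, an integrin chain (-0.85), and Rac1, a GTPase of engulfment (0.55, not called by edgeR, adjusted p = 0.0502). The list's median change was -0.37 for IL10R against CX and 0.85 for IL10R_abx against IL10R, beside 0.01 and 0.03 for all tested genes. In the latter comparison 7 were higher and 1 lower of 12, beside 57.8% called over all tested genes, including Lrp1 (1.46), an engulfment receptor, Socs3 (2.04), a feedback inhibitor of STAT3, and Elmo1 (1.23), a regulator of Rac. In ko_igg and in ko_ly6g, 1 was higher and 1 lower of 11, beside 9.19% and 4.34% called over all tested genes.

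On the activin side, none of the 6 tested genes other than Inhba was called in the first table, for IL10R against CX or for IL10R_P19 against IL10R, with medians of -0.04, -0.01 and 0.04 and with 2 at an unadjusted p under 0.05 and 0 called by edgeR in each. Over all tested genes, limma called 8.69%, 9.91% and 2.43% in that order. The activin receptor gene Acvr2a was listed in the first table and was under the filter there. Smad7, which inhibits signalling of activin and TGF-beta receptors and stands in both lists, fell by 1.06 in ko_igg (limma adjusted p = 0.0119) and by 0.96 in ko_ly6g (adjusted p = 0.0304), the only limma call among 5 tested genes of the activin list in each, and edgeR did not call it (adjusted p = 0.105 and 0.0789). Of all tested genes, limma called 9.19% in ko_igg and 4.34% in ko_ly6g against wt. For IL10R_abx against IL10R, 1 was higher and 2 lower of 6, not above the 57.8% called over all tested genes. Furin, a protease that cleaves both precursors, rose by 0.83, Smad4, the shared partner of the receptor SMADs, fell by 0.75 and Fstl1, a follistatin-like protein, fell by 1.33.

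On the TGF-beta side, the receptor gene Tgfbr2 was at 164 ± 17.7 in IL10R, 271 ± 21.6 in CX, 227 ± 50.4 in IL10R_P19 and 441 ± 26.2 in IL10R_abx. Tgfbr2 fell by 0.73 in IL10R against CX (limma adjusted p = 0.0180) and rose by 1.43 in IL10R_abx against IL10R, while its change of 0.45 in IL10R_P19 missed the threshold (adjusted p = 0.116). Its partner Tgfbr1 was not called in any comparison. Nrros, which tethers latent TGF-beta 1 on macrophages, fell by 1.18 and Pmepa1, a target and inhibitor of TGF-beta signalling, fell by 1.14 in IL10R against CX. Pmepa1 rose by 0.71 in IL10R_P19, and Nrros rose by 2.77 in IL10R_abx against IL10R.

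Besides Tgfb1, 0 were higher and 3 lower of 20 tested genes of this list for IL10R against CX, and 1 was higher of 20 for IL10R_P19 against IL10R. Over all tested genes, 9.91% and 2.43% were called in these comparisons, in that order. For IL10R_abx against IL10R, 11 were higher and 2 lower of 20, beside 57.8% called over all tested genes, including Ski (1.17), a repressor of SMADs. In the first table, where Tgfb1 was not called, Tgfbi, a TGF-beta induced matrix protein, rose by 1.06 and Tgfbrap1, a receptor-associated protein, fell by 0.91, out of 20, beside 8.69% called over all tested genes. Without the library labelled IL10R 2 these changes were 0.81, which was not called, and -0.98. In ko_igg and ko_ly6g, Smad7 was the 1 gene called by limma of 19, beside 9.19% and 4.34% called over all tested genes.

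Other growth factors of macrophages, a further list, were called in both directions in the first table. In the first table Vegfa, the vascular growth factor, rose by 1.62 and Il1rn, the interleukin-1 receptor antagonist, by 1.54, while Bmp2 fell by 2.15 and Vegfb by 0.98, out of 11 tested, beside 8.69% called over all tested genes. All 4 were also called without the library labelled IL10R 2 (1.24, 1.39, -1.67 and -1.03 in that order). For IL10R against CX 3 of 11 were lower, the TGF-beta family member Gdf15 (-1.40), progranulin Grn (-0.97) and Pdgfa (-0.77), and none was called by limma or edgeR for IL10R_P19 against IL10R (3 at an unadjusted p under 0.05). Over all tested genes, limma called 9.91% and 2.43% in these comparisons, in that order. For IL10R_abx against IL10R, 5 were higher and 1 lower of 11, beside 57.8% called over all tested genes, with Gdf15 at 3.93, Grn at 1.86, Vegfb at 1.07 and Osm at 1.63. In ko_igg Vegfa rose by 1.26, the 1 limma call of 10 (edgeR adjusted p = 0.0582, not called), and none of 10 was called by limma or edgeR in ko_ly6g (1 at an unadjusted p under 0.05). Of all tested genes, limma called 9.19% in ko_igg and 4.34% in ko_ly6g. Between IL10R_P19 and CX, IL10R_abx and littermate_abx, and ko_ly6g and ko_igg, limma called no gene of any of the 5 lists, nor did edgeR, with 0 to 2 genes a list at an unadjusted p under 0.05.

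The genes whose level ran most like each member were ranked by Pearson's r over libraries within each table, averaged over the tables that tested the member, as a description without a test, since libraries share groups, depth and composition. Nearest to Igf1 over 34 libraries were Fcgrt, the neonatal Fc receptor (mean r 0.946), Mrc1, the mannose receptor (0.936), Cd93 and Cd81 (0.923). Nearest to Gas6 were St6gal1, a sialyltransferase (0.931), Cbr2, Nsmf, Slco2b1 and Mtss1 (0.903). Nearest to Tgfb1 were Plekho1 (0.937), Renbp, Csf1r, the receptor of the macrophage growth factor CSF1 (0.932), Dok3 and Cnpy3 (0.925). For Inhba the first table alone served, with 6 libraries in 2 separate groups, and the nearest genes were Borcs8 (0.999), Ly6a, Nos2, the inducible nitric oxide synthase (0.993), Fis1 and Psme2b (0.991).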

How the data were processed

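Poly(A) RNA was selected on oligo-dT beads and amplified by T7 transcription before fragmentation, per the labels' protocols. The submitters' processing notes name HISAT 0.1.6, HOMER, bcl2fastq and the build mm9. Counting, strand and gene filter: not given in the sources used here. The authors deposited normalized signal: whole reads divided by 1 factor per library, as read from the values (100% whole within 0.01 read in 32 of 34 libraries, the other 2 having too few low values). The first and rescue tables also have 15399 and 15605 blank rows, which were dropped.

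The analysis used log2(value + pseudocount), with pseudocounts of 1.31, 0.997 and 0.982 in the first, rescue and neutrophil tables, which understates changes of low genes. Genes with a mean in the lower quartile (up to 53.2, 40.4 and 68.0) were removed, leaving 6766, 6612 and 6594. Each table was fitted once with all its groups (limma 3.58.1 in R 4.3.3, trend and robust options, Benjamini-Hochberg). Inhba passed the filter in the first table only. Alternatives were edgeR 4.0.16 on recovered reads, other pseudocounts and filters, fewer groups, a replicate block and leaving out libraries. Pairs of libraries of 1 group with recovered reads all differed by more than counting noise (lowest chi-square per degree of freedom 3.59).

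The members and lists were chosen with earlier results of these data known. Genes named are the members, their listed partners, up to 4 called genes per list and comparison with the smallest adjusted p, the 5 genes most alike to each member (1 of those for Igf1 is not reported here), and Il10ra. Mertk, Fst and Acvr1b are not listed in any of the expression tables, so they were not analysed here.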

Additional observations from a re-analysis of the deposited data

Results flagged for a closer look

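Igf1 in the IL10R group of the rescue table had 1 library far from the others: IL10R 68 was at 186.6, against 38.4 to 45.9 in the other 4, a gap of 0.949 of the group's range. This is above the 95% critical value of Dixon's test for 5 values. Of 16 groups of 4 or 5 libraries examined over the 4 genes, it was the only one, and chance flags about 5% of groups. The same library had the highest Tgfb1 (81.2) and Gas6 (689) and the lowest Inhba (9.65) of its group. Its Il10ra was 11.3, within the range of the other IL10R libraries, and its summed macrophage markers were 16283, within theirs too. Without it Igf1 fell by 2.64 in IL10R against CX in place of 2.23 (limma).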

How the results depend on the processing

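Most results kept their direction and their side of the threshold. The limits are few libraries, with 2 in CX, and low reads of Inhba, from 1 to 36 per library in the rescue table. With only the compared groups in the fit, Igf1 in IL10R against CX lost its call (-2.23), as did Inhba in ko_ly6g against wt (2.14), while calls were gained by Igf1 in littermate_abx against CX (0.73) and in IL10R_abx against IL10R_P19 (0.68) and by Inhba in IL10R_P19 against IL10R (-1.85). The genes called became 1093 for IL10R against CX, 6 for IL10R_P19 against CX, 16 for the antibiotic difference and 96 for ko_ly6g against wt. With edgeR, Gas6 (-1.03) and Inhba (2.68) in ko_igg against wt and Inhba in ko_ly6g against wt (2.14) lost their calls and Inhba in IL10R_P19 against IL10R gained one (-2.09). The genes called became 287 for IL10R_P19 against IL10R, 24 for the antibiotic difference, and 56 in each of ko_igg and ko_ly6g against wt. In the neutrophil table edgeR ran without ko_igg 16 and wt 3, so the method and the libraries changed together there. A pseudocount 4 times larger called Inhba in IL10R_P19 against IL10R (-1.45), and removing the filter changed no call of a member. For ko_ly6g against ko_igg limma and edgeR both called 0 genes, with 127 at an unadjusted p under 0.05 in limma.

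The replicate block in the first table changed no call of a member (Igf1 -2.35, Gas6 -2.54, Inhba 4.85, Tgfb1 0.32; 808 genes called). Same-numbered libraries correlated at -0.06, 0.15 and 0.35 in their deviations. CXhet 2 and CXhet 3 correlated best with the IL10R library of the same number, and CXhet 1 with IL10R 2 (0.15). With 3 libraries a group these correlations constrain each other and cannot decide whether the numbers pair the libraries, which the labels do not say. The other tables share no replicate numbers between groups.

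Leaving out 1 library at a time, the results that crossed the threshold, moved or turned sign ranged as follows, the cause not being tested. For IL10R against CXhet, they were Igf1 -2.73 to -1.73, genes called 200 to 588. For IL10R against CX, they were genes called 20 to 741, Inhba 1.14 to 2.36, Igf1 -2.64 to -2.05, Tgfb1 -1.52 to -1.26. For IL10R_P19 against IL10R, they were Tgfb1 0.58 to 0.84, genes called 17 to 377, Inhba -2.09 to -1.55. For IL10R_P19 against CX, they were Inhba -0.71 to 0.51, Igf1 -0.27 to 0.083, genes called 0 to 2. For IL10R_abx against littermate_abx, they were Igf1 -0.32 to 0.11, genes called 2 to 385, Gas6 -0.19 to 0.047. For littermate_abx against CX, they were Gas6 0.77 to 1.00, Inhba -0.32 to 0.89, genes called 1325 to 2058. For IL10R_abx against IL10R_P19, they were Inhba -0.42 to 0.014. For the antibiotic difference, they were genes called 0 to 73, Igf1 -2.50 to -1.91, Tgfb1 -1.36 to -1.06. For ko_igg against wt, they were Gas6 -1.32 to -0.93, Inhba 2.00 to 2.71, genes called 203 to 1039. For ko_ly6g against ko_igg, they were Inhba -0.60 to 0.13, Igf1 -0.44 to 0.015, Gas6 -0.022 to 0.53, Tgfb1 -0.48 to 0.16. For ko_ly6g against wt, they were Igf1 -1.48 to -0.97, genes called 103 to 489, Inhba 1.82 to 2.49, Gas6 -1.11 to -0.60. All sign changes were of values that were not called.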
